A study of Mus musculus with 4 samples.

Results

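The 10 genes described here encode granule proteins and a receptor subunit of eosinophils, basophils and mast cells, and were read from bulk RNA-sequencing of sorted bone marrow pro-B cells of mice. They are Epx, Prg2, Prg3, Ear1, Ear2, Ear6, Prss34, Mcpt8, Cpa3 and Ms4a2, chosen by symbol from a table of 24411 genes, and all 10 were found in it. The choice was made with the result of knockout against control known, so that contrast is given for these genes as a description without a test. Each library came from its own C57BL/6 mouse, and all 4 mice carried mb1Cre, a Cre recombinase driven from the Cd79a locus, which is active in the B lineage. The 2 controls were Tnpo3+/+ mb1Cre (numbered 55 and 69) and the 2 knockouts Tnpo3fl/fl mb1Cre (numbered 51 and 63). The labels used here give no age or treatment. Cells were sorted as positive for B220, CD43 and HSA, the heat-stable antigen CD24. In what follows, 4 values in a row are in the order control 55, control 69, knockout 51, knockout 63, and CPM is the usual read count scaled to library size, with library sizes adjusted by TMM (the trimmed mean of M values).

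Eosinophils, basophils and mast cells are granulocytes of allergic and antiparasite responses and descend from myeloid progenitors, not from the B lineage. Eosinophil granules hold eosinophil peroxidase (Epx), the major basic proteins (Prg2 and its homologue Prg3) and small ribonucleases (the Ear genes). Basophils store the serine proteases encoded by Prss34 and Mcpt8. Carboxypeptidase A3 (Cpa3) is stored by mast cells and made by basophils, and is also transcribed in blood progenitors, while Ms4a2 encodes the beta chain of the high-affinity IgE receptor that both cell types carry.

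The genes lie on 6 chromosomes, with coordinates from the RefSeq annotation of GRCm38.p6. Epx is on chromosome 11 (87863997 to 87875536). Prg2 (84980461 to 84983632) and Prg3 (84988196 to 84996559) are neighbours on chromosome 2, separated by 4563 bases. Chromosome 14 holds Ear1 (43818765 to 43819639), Ear2 (44102654 to 44103531), Ear6 (51853768 to 51854643) and Mcpt8 (56082163 to 56085499). Prss34 is on chromosome 17 (25298394 to 25300168), Cpa3 on chromosome 3 (20215616 to 20242209) and Ms4a2 on chromosome 19 (11615517 to 11623790).

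The Ear genes are copies of one another, which bears on how far their counts can be trusted. The 130 bases before the start sites of Ear1, Ear2 and Ear6 (RefSeq, GRCm38.p6) are shown to make that likeness visible, with capitals for the longest run that all 3 share, 30 bases.
Ear1, chr14:43819640-43819769, minus strand: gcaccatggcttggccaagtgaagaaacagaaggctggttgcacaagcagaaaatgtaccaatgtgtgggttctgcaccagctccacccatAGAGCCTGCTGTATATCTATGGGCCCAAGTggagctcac
Ear2, chr14:44102524-44102653, plus strand: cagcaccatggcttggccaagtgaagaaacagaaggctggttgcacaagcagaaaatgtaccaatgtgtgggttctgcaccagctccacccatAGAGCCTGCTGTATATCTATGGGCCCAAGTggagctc
Ear6, chr14:51853638-51853767, plus strand: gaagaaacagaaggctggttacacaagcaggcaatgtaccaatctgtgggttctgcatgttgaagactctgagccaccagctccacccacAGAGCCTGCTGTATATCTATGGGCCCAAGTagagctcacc
Over the 250 bases before the start, Ear1 and Ear2 were 97.6% identical, Ear1 and Ear6 78.2%, and Ear2 and Ear6 77.3%. In the GENCODE M21 transcripts, 57.4% of the 50-base stretches of Ear1 and 41.5% of those of Ear2 also occur in a transcript of another gene, among them Ear10 and the pseudogene Ear-ps9, against 0.954% for Ear6. Reads of Ear1 and Ear2 can therefore be split between copies or dropped, and their counts are uncertain. Ms4a2 shared 2.10% of its stretches, with Ms4a4b, and Epx, Prg2, Prg3, Prss34, Mcpt8 and Cpa3 shared 0. Of the other Ear genes in the count table, Ear3, Ear4, Ear7, Ear10, Ear12 and Ear14 were listed at 0 in all 4 libraries. Ear3, Ear4, Ear7 and Ear12 have no entry in GENCODE M21, and Ear10 shares 39.9% of its stretches with other genes. The zeros of Ear3, Ear4, Ear7, Ear10 and Ear12 therefore do not show that these genes were not expressed. Ear14 has an entry and shared 0 of its 899 stretches, so neither reason covers its zero.

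GATA factors act in all 3 cell types and bind a hexamer made of GATA with A or T before it and A or G after it. The promoters were searched for its 4 forms on both strands. Of the 9 of 10 genes with a promoter in the RefSeq table, 4 held a match in the 250 bases before the start, against 26.5% of all 32851 promoters in the table. These 4 are shown with the hexamers, read on either strand, in capitals.
Cpa3, chr3:20242182-20242311, minus strand: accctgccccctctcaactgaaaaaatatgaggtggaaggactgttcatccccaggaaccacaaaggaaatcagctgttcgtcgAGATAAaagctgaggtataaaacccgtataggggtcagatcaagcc
Prss34, chr17:25298264-25298393, plus strand: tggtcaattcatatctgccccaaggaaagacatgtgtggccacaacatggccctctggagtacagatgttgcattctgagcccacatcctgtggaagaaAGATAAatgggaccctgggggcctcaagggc
Ms4a2, chr19:11623720-11623849, minus strand: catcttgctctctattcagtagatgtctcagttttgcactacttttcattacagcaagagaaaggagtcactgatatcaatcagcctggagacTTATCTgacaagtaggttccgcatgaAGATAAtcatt
Prg3, chr2:84988085-84988214, plus strand: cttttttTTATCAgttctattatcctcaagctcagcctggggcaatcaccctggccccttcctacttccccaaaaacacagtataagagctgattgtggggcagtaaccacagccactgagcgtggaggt
In Cpa3 the match began 46 bases before the start and in Prss34 31 bases before it. Ms4a2 held 3 matches, beginning 224, 37 and 11 bases before the start, of which the last 2 are within the bases shown. That of Prg3 began 123 bases before the start. Epx, Ear1, Ear2, Ear6 and Mcpt8 held none in this window. The start is that of the RefSeq promoter table, which for Prg3, Mcpt8, Cpa3 and Ms4a2 lies inside the outer bounds of the gene given above, so the windows of these 4 genes do not lie before their outermost start. A match is a description of the letters and not a binding site.

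Library totals ran from 26211372 to 40647384 counts, so that 3 counts, the floor used for a count of 0, stood for 0.0743 to 0.113 CPM. Tnpo3, the targeted gene, was measured at 159, 148, 79.7 and 68.8 CPM (log2 fold change -1.05 ± 0.14, SE, adjusted p = 0.0108 by edgeR's quasi-likelihood test, or 0.0603 without knockout 63). The sorted cell type was checked on the pro-B genes Cd79a, Ebf1, Pax5, Rag1, Vpreb1, Igll1 and Il7r, all of which were detected in every library. Cd79a was at 658, 624, 180.1 and 185 CPM and Ebf1 at 648, 757, 157 and 137 CPM. Vpreb1 (260.1, 792, 228 and 152 CPM) and Igll1 (326, 990, 419 and 295 CPM) differed widely between the controls. Of these 7 genes 4 were called lower by edgeR's test (Cd79a, Ebf1, Pax5 and Rag1) and 0 higher, against a background of 10.9% and 11.3% of all tested genes, and the knockouts held 20.7% to 62.6% of control. The 10 genes of eosinophils, basophils and mast cells summed to 311, 148, 4.28 and 2.82 CPM. The mast cell name was not borne out in the controls by a list of 13 genes that mark mast cells. Of these, Mcpt1, Mcpt2, Mcpt4, Mcpt9, Tpsb2, Tpsab1, Mrgprb1 and Mrgprb2, which encode mast cell proteases and receptors, were listed at 0 in all 4 libraries. Kit, Slc18a2 and Hpgds, which other cells also express, were detected in all 4, and Cma1, the mast cell chymase gene, had 1, 0, 52 and 24 counts. Cpa3 and Ms4a2, which basophils share, are treated below with the basophil proteases.

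The 6 eosinophil genes were present in both controls and had few or no reads in the knockouts. Prg2, the most abundant, was at 192, 77.9, 2.06 and 0.631 CPM, from 6293, 2073, 83 and 19 counts. Its level was higher in control than in knockout by a factor of 97.5 (80.2 to 120, the exact 95% counting interval of the pooled counts). Intervals of this kind, here and below, cover counting error only, since PCR copies cannot be told from separate molecules, and not the spread between mice. Epx, which encodes the peroxidase, was at 42.8, 25.2, 0.0248 and 0 CPM. A single read was left in the knockouts against 2069 in the controls, a ratio of 0.000407 (1.03e-05 to 0.00227). With 3 counts in place of that read, the log2 ratio of Epx was -9.68. It was -8.45 and -8.87 without knockout 51 and without knockout 63, where the floor rests on fewer reads. The value of -9.68 is not a limit, since the exact interval reaches a ratio of 0.00227, which is higher. Prg3, the homologue next to Prg2, was at 17.6, 8.27, 0.297 and 0.431 CPM, higher in control by a factor of 37.8 (25.4 to 58.8). Leaving out 1 library moved the log2 ratio of knockout to control of Prg2 from -6.61 to between -5.75 (without control 55) and -7.81 (without knockout 51), and that of Prg3 from -5.24 to between -4.54 (without control 55) and -5.63 (without control 69). For Epx, Prg2 and Prg3 the controls and knockouts were far apart and did not overlap. In these bulk libraries, fewer cells of a type and less RNA per cell cannot be told apart.

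The ribonuclease genes had lower counts. Ear1 was at 25.1, 8.04, 0.570 and 0 CPM, with all 23 knockout reads in knockout 51, and was higher in control by a factor of 53.5 (35.4 to 84.8). Its log2 ratio of -5.74 was -4.62 without control 55, -4.94 without knockout 63 and, with 3 counts in place of 0, -7.45 without knockout 51. Ear6 had 96, 17, 0 and 0 counts, 44.8-fold lower in the knockouts at 3 counts over both and at least 35.8-fold lower by the exact limit. The value at 3 counts, -5.48 as a log2 ratio, was -3.91 without control 55 and -6.11 without control 69. It was -4.26 without knockout 51 and -4.68 without knockout 63. Ear2 had 31, 3, 0 and 0 counts, 13.5-fold lower at 3 counts and at least 10.4-fold lower by the exact limit. Ear2 was the 1 gene of the 10 that did not pass the filter on low counts, and its level in control 69, 0.113 CPM, was that of 3 reads. Without control 55 the log2 ratio of Ear2 at 3 counts moved to -1.41, from -3.75 with all libraries. It was -2.53 and -2.95 without knockout 51 and without knockout 63.

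The basophil genes Prss34, Mcpt8 and Ms4a2 were also lower in both knockouts than in both controls. Prss34, a tryptase-like serine protease gene, was at 17.5, 15.8, 0.0248 and 0 CPM, a ratio of 0.000848 (2.15e-05 to 0.00474) that rests on 1 read in the knockouts. With 3 counts in place of that read, its log2 ratio was -8.62, or -7.39 without knockout 51 and -7.81 without knockout 63. Mcpt8, the other protease gene, was at 7.40, 7.70, 0.124 and 0.0996 CPM, from 242, 205, 5 and 3 counts, and higher in control by a factor of 66.4 (33.4 to 155). Ms4a2 had 68, 48, 1 and 1 counts, a ratio of 0.0145 (0.00174 to 0.0536). With 3 counts over the knockouts its log2 ratio was -5.52, or -4.30 without knockout 51 and -4.72 without knockout 63. Both knockouts kept some Mcpt8 and Ms4a2 reads, while for Prss34 the single read was in knockout 51.

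Cpa3 stood apart from the other 9 genes. It was at 2.66, 2.44, 1.16 and 1.63 CPM, from 87, 65, 47 and 49 counts. The knockouts held 53.1% of its control level, against 1.03% for Prg2, 1.87% for Ear1, 2.65% for Prg3 and 1.51% for Mcpt8. For Ear6 and Ear2, at 0 reads in the knockouts, 3 counts stand for 2.23% and 7.42%, and the exact intervals reach ratios of 0.0279 and 0.0964. The controls and knockouts of Cpa3 did not overlap, but its control level exceeded its knockout level by a factor of 1.88 only (1.45 to 2.46). As a consequence Cpa3 made up 0.854% and 1.65% of all reads of the 10 genes in the controls, and 27.2% and 57.6% in the knockouts. All 10 genes had both controls above both knockouts. Of the 13507 genes that passed the filter 34.6% showed this order, and since the genes were chosen on this contrast nothing is read from their count.

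**Figure D1:**
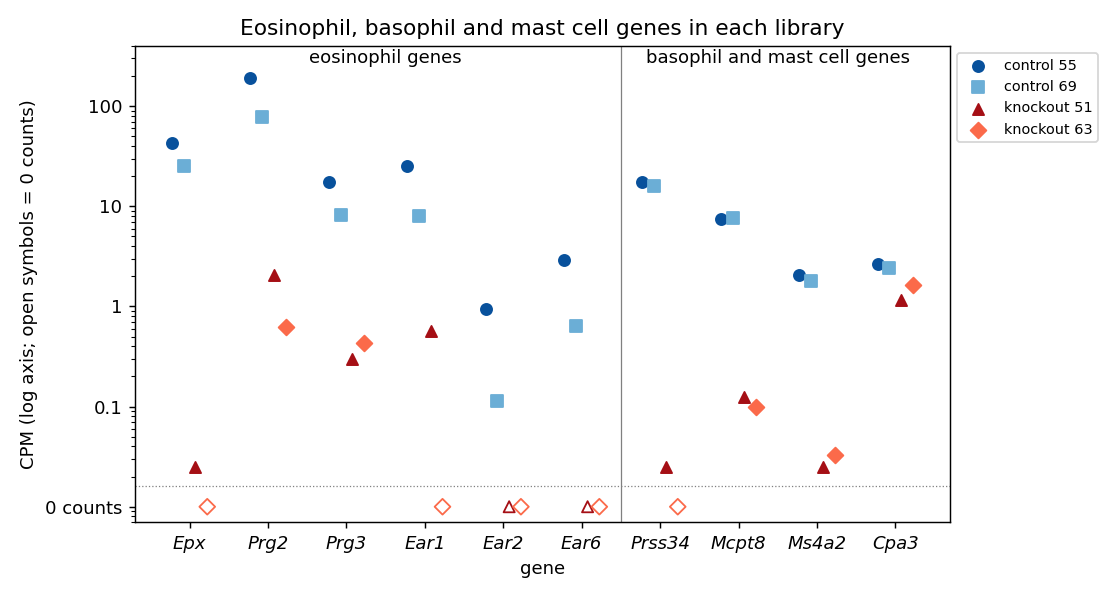
Level of each of the 10 genes in the 4 libraries, in CPM on a log axis; filled symbols are measured levels, open symbols below the dotted line are libraries with 0 counts. Blue control symbols lie above red knockout symbols for every gene, with Cpa3 closest (2.66 and 2.44 against 1.16 and 1.63 CPM) and 5 genes at 0 counts in knockout 63.

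Levels of different genes were compared per kilobase of exon (GENCODE M21), as CPM per kilobase in controls 55 and 69. Prg2 led at 230 and 93.0, above every other gene in both libraries. A group of 4 followed whose levels overlapped, namely Ear1 (34.4 and 11.0), Prss34 (14.3 and 12.9), Prg3 (18.5 and 8.71) and Epx (15.6 and 9.20). Mcpt8 came next at 7.41 and 7.72, below all of these in each control. Ear6 (3.11 and 0.676) and Cpa3 (1.75 and 1.61) overlapped, as did Ear2 (1.32 and 0.157) and Ms4a2 (0.739 and 0.641) at the lower end. The values of Ear1 and Ear2 carry the uncertainty of shared reads. By read number Prg2 took 61.8% and 52.7% of all reads of the 10 genes in the 2 controls.

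The controls differed from each other in the 6 eosinophil genes, and not detectably in Prss34, Mcpt8, Cpa3 and Ms4a2. This comparison sets single libraries side by side, so it has no replicates, and it was not used to choose the genes. Every eosinophil gene was higher in control 55, by a factor of 1.70 for Epx (exact 95% counting limits 1.55 and 1.87), 2.13 for Prg3 (1.82 to 2.49), 2.47 for Prg2 (2.35 to 2.60), 3.12 for Ear1 (2.68 to 3.64), 4.59 for Ear6 (2.72 to 8.21) and 8.41 for Ear2 (2.62 to 43.0). All 6 intervals lay above 1, as did those of 31.8% of the 13507 tested genes, with another 32.4% below 1. That of Epx lay below those of Prg2 and of the 3 ribonuclease genes. For Prss34 the factor was 1.11 (0.975 to 1.26), for Mcpt8 0.960 (0.794 to 1.16), for Cpa3 1.09 (0.780 to 1.53) and for Ms4a2 1.15 (0.785 to 1.70), so that all 4 intervals held 1. From the 5th to the 95th percentile, the same ratio over the 13507 tested genes spanned 0.515 to 1.99 with 0.1 CPM added to each level. Epx lay inside that span, and the other 5 eosinophil genes above it. Summed, the 6 eosinophil genes were at 282 and 120 CPM and Prss34, Mcpt8 and Ms4a2 at 27.0 and 25.3 CPM. That is 10.4 and 4.75 reads of the former genes for each read of the latter. These are ratios of reads, not adjusted for gene length or number of genes, and not of cells.

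Of the eosinophil genes outside the 10, 3 were higher in control 55 as well. Alox15, a lipoxygenase gene, was higher in control 55 by a factor of 3.93 (2.95 to 5.30), Il5ra, the interleukin-5 receptor alpha gene, by 1.81 (1.56 to 2.10), and Ccr3, the eotaxin receptor gene, by 1.75 (1.32 to 2.35). Siglecf (1.03, 0.685 to 1.56) and Adgre1 (1.15, 0.959 to 1.37) had intervals that held 1, and Ltc4s was lower in control 55 (0.246, 0.108 to 0.512). Of basophil genes, Hdc, which encodes the enzyme that makes histamine, was at a factor of 0.923 (0.802 to 1.06) and Fcer1a, the alpha chain gene of the IgE receptor, at 1.24 (0.673 to 2.34), but Il3ra of the same list was lower in control 55, at 0.601 (0.536 to 0.673). Of the mast cell list, Kit was lower (0.348, 0.319 to 0.380) and Hpgds higher (1.54, 1.16 to 2.06). The 8 dendritic cell genes summed to 650 and 350 CPM, with Siglech at 194 and 28.3 CPM and Zbtb46 at 0.459 and 0.526 CPM, and the 12 neutrophil genes were higher in control 55 by factors of 1.07 to 1.501. Their part in the eosinophil difference was not tested.

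**Figure D2:**
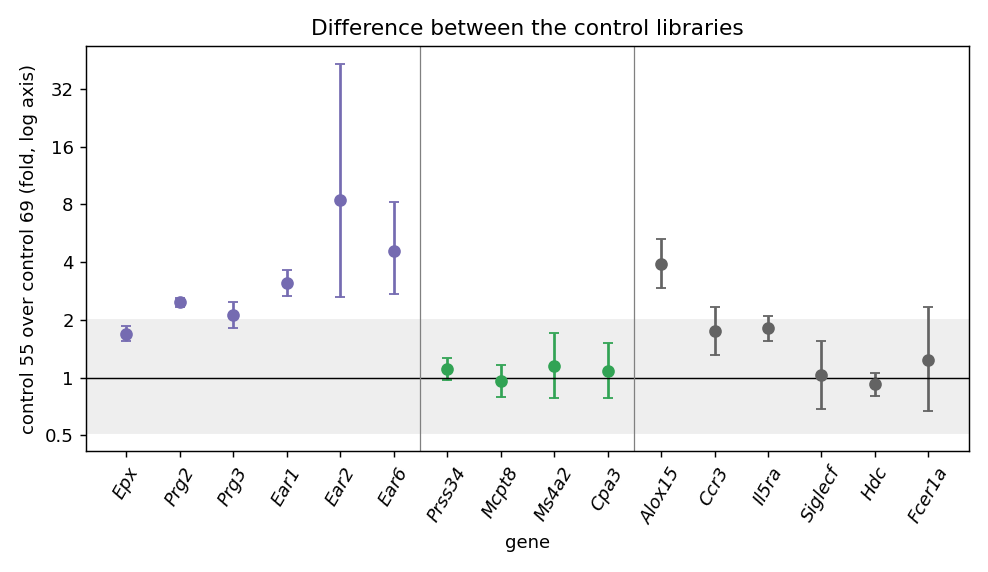
Ratio of control 55 to control 69 (log axis) for the 6 eosinophil genes, the 4 basophil and mast cell genes and 6 related genes; bars are exact 95% counting intervals, and the grey band spans 0.515 to 1.99, the 5th to 95th percentile of all tested genes. The eosinophil genes run from 1.70 to 8.41, while the intervals of Prss34, Mcpt8, Ms4a2 and Cpa3 all cross 1. The related genes drawn are Alox15, Ccr3, Il5ra, Siglecf, Hdc and Fcer1a. Other genes of their lists and of the mast cell list are not drawn. Among those, Ltc4s (0.246), Il3ra (0.601) and Kit (0.348) were lower in control 55 and Hpgds (1.54) was higher.

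In the knockouts few reads were left to compare. Prg2 was higher in knockout 51 than in knockout 63 by a factor of 3.26 (1.96 to 5.69), and the 23 against 0 reads of Ear1 give a lower limit of 4.29. For Prg3 (12 and 13 reads) the factor was 0.689 with an interval of 0.287 to 1.64, which lies below that of Prg2. The intervals of Cpa3 (0.716, 0.469 to 1.09) and Mcpt8 (1.24, 0.242 to 8.01) held 1, so no difference was detectable at this depth. The 12 neutrophil granule genes were all higher in knockout 51, by factors of 2.46 to 32.1 with a median of 4.18. NK cell genes were higher there too, at 414 and 38.6 CPM summed over 4 genes. The part of these differences in the values of Prg2 and Ear1 was not tested.

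Markers of other myeloid and erythroid cells moved between genotypes in the same libraries. These lists, like all lists used here, were chosen with earlier results of these data known. The background shares are therefore given for scale, and the numbers of calls are not a test of the lists. The 12 neutrophil genes (Mpo, Elane and Ngp among them) were lower in the knockouts in all 12 cases by edgeR's test, against a background of 10.9% of the 13507 tested genes called lower. Their summed level was 5283, 4147, 231 and 58.0 CPM, and the knockouts held 2.08% to 7.14% of the control level of each (median 3.24%). Of 7 erythroid genes 6 were called lower, with sums of 125, 147, 60.4 and 31.4 CPM. Most of these sums in the knockouts came from Car2, the 1 gene not called (64.8, 94.7, 58.7 and 27.8 CPM). The 6 called genes were at 2.59% (Slc4a1) to 23.3% (Epor) of control. Of the 3 tested among 5 megakaryocyte genes 1 was called lower, with sums of 5.78, 7.44, 1.71 and 1.59 CPM. No gene of the neutrophil or erythroid list was at 0 in any library, and of the megakaryocyte genes Gp1bb was, in knockout 63. Of 8 dendritic cell genes 7 were called higher, against a background of 11.3% called higher. Their sums were 650, 350, 4030 and 5551 CPM. Of 8 monocyte and macrophage genes 3 were called higher (Cd68, Ccr2 and Ly6c2) and 2 lower (C1qa and C1qc), with sums of 157, 113, 1395 and 988 CPM. Ly6c2 made up most of these sums in the knockouts (84.3, 48.5, 1152 and 768 CPM), while C1qa, C1qb and C1qc were at 17.9% to 23.2% of control. Of 4 NK genes 3 were called higher, and of 4 T cell genes 1 (4.77, 6.88, 40.7 and 10.3 CPM). The part of these genes in the values of the 10 was not tested.

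**Figure D3:**
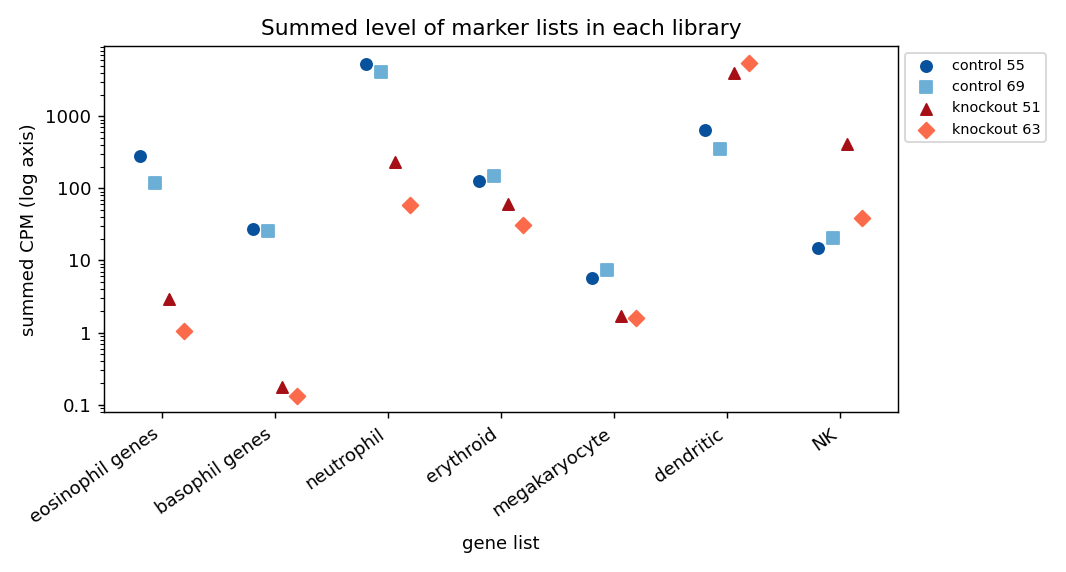
Summed CPM (log axis) in each library of the 6 eosinophil genes, of the basophil genes Prss34, Mcpt8 and Ms4a2, and of marker lists of other cells. Eosinophil genes drop from 282 and 120 CPM in the controls to 2.95 and 1.06 CPM in the knockouts, basophil genes from 27.0 and 25.3 to 0.173 and 0.133, while dendritic genes are higher in the knockouts.

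Other genes of the 3 cell types showed a mixed picture. Of 38 such genes outside the 10, 37 were in the table. At 0 in every library were 15 of them, including the Ear genes listed at 0 above, and 17 passed the filter. Of these 17, 4 were called lower and 2 higher by edgeR's quasi-likelihood test, against a background of 10.9% lower and 11.3% higher, and 11 were not called. Their median log2 fold change was -1.16, beside -0.02 over all tested genes. Alox15 was at 8.56, 2.18, 0.173 and 0.0996 CPM (log2 fold change -5.23 ± 0.89, SE, adjusted p = 0.0176). Without control 55 the fold change of Alox15 was -3.90, without control 69 it was -5.90, and without knockout 63 its adjusted p was 0.0531 (range over 12 alternatives 1.66e-07 to 0.0531). Hdc was at 13.1, 14.2, 2.20 and 0.564 CPM (-3.27 ± 0.64, adjusted p = 0.0235), with -4.58 without knockout 51 and -2.62 without knockout 63. Adgre1, which encodes F4/80 and is also made by macrophages, was at 9.26, 8.08, 1.29 and 0.830 CPM (-3.02 ± 0.38, adjusted p = 0.00956). Fcer1a had 29, 19, 0 and 0 counts, with an adjusted p of 0.0193. By the exact counting limit Fcer1a was at least 14.9-fold lower in the knockouts, and 19.0-fold lower at 3 counts. It missed the threshold narrowly without control 55 (0.0501), knockout 51 (0.0502) or knockout 63 (0.0505), in a range of 0.00162 to 0.0505.

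Surface genes that define eosinophils did not pass. Il5ra was at 17.8, 9.85, 0.223 and 2.39 CPM, with the groups apart, a log2 fold change of -3.44 ± 1.01 and an adjusted p of 0.0641. The knockouts differed widely in it, and Il5ra passed without control 69 (0.0247), without knockout 51 (-2.53, adjusted p = 0.0390), without knockout 63 (-5.93, 0.00971), with DESeq2 (0.000815), limma-voom (0.0293), limma on the authors' values (0.0479) and without a filter (0.0172), in a range of 0.000815 to 0.0850 over 12 alternatives. Ccr3 was at 4.74, 2.71, 1.44 and 1.59 CPM (adjusted p = 0.0927) and Siglecf, an eosinophil lectin gene, at 1.74, 1.69, 1.11 and 0.398 CPM (0.224). Of mast cell genes, Kit, the stem cell factor receptor gene that progenitors also express, was at 22.5, 64.5, 68.9 and 33.6 CPM, with overlapping groups and an adjusted p of 0.787. Its log2 fold change of 0.24 turned to -0.30 without control 55 and to -0.37 without knockout 51, and was 1.19 without control 69.

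The genes called higher were Cma1 and Rnase2b, both low. Cma1, the mast cell chymase gene, had 1, 0, 52 and 24 counts, a ratio of 63.9 with a counting interval of 11.1 to 2558 and an adjusted p of 0.0177. Without knockout 51 its adjusted p was 0.0586, in a range of 0.00465 to 0.0586. Rnase2b, a ribonuclease gene near the Ear genes on chromosome 14, had 0, 0, 16 and 12 counts, with an adjusted p of 0.0352. By the exact counting limit Rnase2b was at least 5.97-fold higher, and 7.85-fold higher at 3 counts. It did not pass without control 55 (0.106), control 69 (0.0993) or knockout 63 (0.119), in a range of 0.0133 to 0.119.

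Transcription factors that direct these lineages split evenly. Of 18 tested, 4 were called lower and 4 higher, beside the background of 10.9% and 11.3%, with a median of -0.43. Cebpe, needed for the late steps of granulocyte maturation, was at 15.7, 14.02, 0.446 and 0.0996 CPM (-5.68 ± 0.62, adjusted p = 0.00726), with fold changes of -7.16 without knockout 51 and -5.04 without knockout 63. Gata2, a factor of progenitors, basophils and mast cells, had 48, 70, 0 and 0 counts (adjusted p = 0.0136). By the exact counting limit Gata2 was at least 37.4-fold lower, and 46.8-fold lower at 3 counts. Zfpm1, which encodes the GATA cofactor FOG-1, was at 186, 264, 72.0 and 27.9 CPM (-2.17 ± 0.47, adjusted p = 0.0301, and -3.01 without knockout 51). Spi1, the gene of PU.1, fell by 0.59 on the log2 scale (adjusted p = 0.0322), and did not pass without control 55 (0.0835), knockout 51 (0.152) or knockout 63 (0.211), in a range of 0.0103 to 0.211.

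Gata1, the factor that specifies eosinophils among other lineages, was at 2.08, 2.67, 0.149 and 0.664 CPM and had an adjusted p of 0.0649. It passed without knockout 63 (-3.96, 0.0390), with DESeq2 (0.0192), limma-voom (0.0406) and without a filter (0.0357), and was at -1.83 without knockout 51, in a range of 0.0192 to 0.141. Gfi1, at 50.1, 58.4, 21.4 and 6.34 CPM, also missed the threshold (0.0589) and passed under 7 of the alternatives at the same threshold, with fold changes of -3.10 without knockout 51 and -1.34 without knockout 63. The factors called higher were Irf8 (2.85 ± 0.39), which dendritic cells express, Mitf (2.16 ± 0.45), Cebpa (1.95 ± 0.31) and Xbp1 (1.78 ± 0.21), with adjusted p-values from 0.00826 to 0.0280. Mitf was at 0.111 without knockout 63, in a range of 0.000397 to 0.111. Between the controls, Gata1, Gata2 and Cebpe did not follow the eosinophil genes. The ratio of control 55 to control 69 was 0.779 (0.550 to 1.102) for Gata1, 0.558 (0.378 to 0.817) for Gata2 and 1.12 (0.975 to 1.28) for Cebpe.

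**Figure D4:**
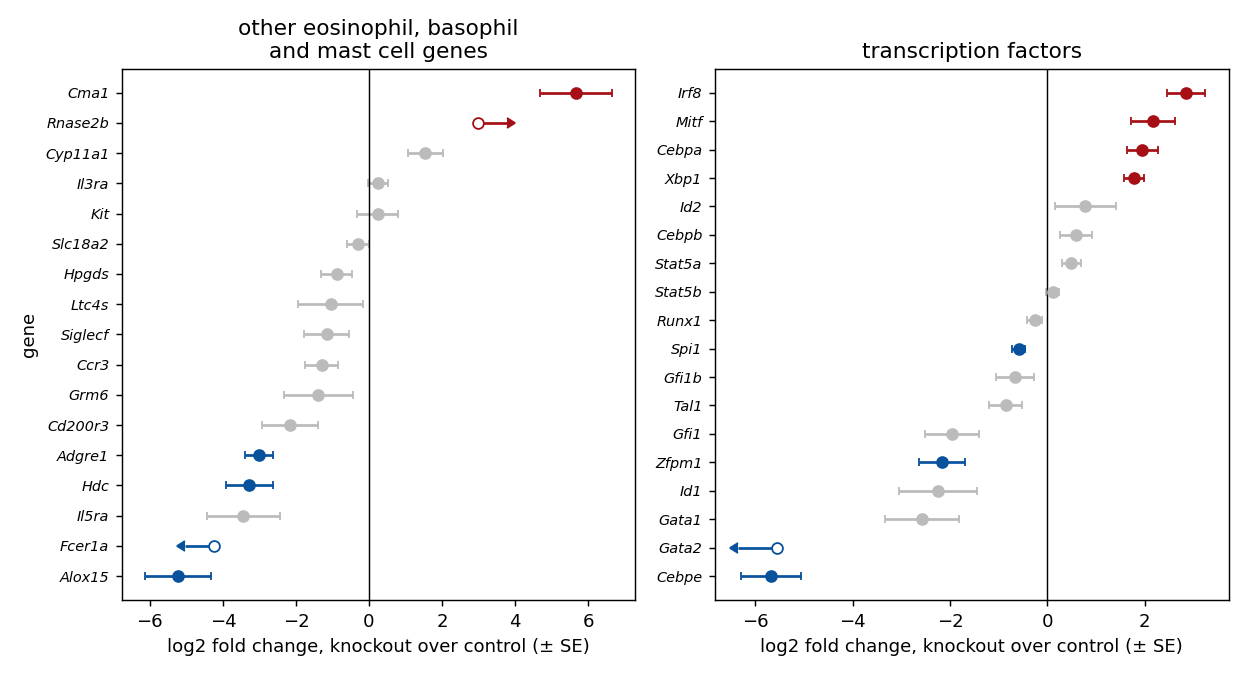
Log2 fold change of knockout over control with its SE. Left are the 17 tested genes of eosinophils, basophils and mast cells outside the 10, and right are 18 transcription factor genes. Blue and red points passed edgeR's test at a false discovery rate of 0.05, and grey ones did not. Open symbols with arrows are log2 ratios at 3 counts where a genotype was at 0. Alox15 (-5.23), Cebpe (-5.68) and the open symbols of Fcer1a and Gata2 lie farthest to the left, while Cma1 (5.68) and Irf8 (2.85) lie to the right.

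Receptors and their signalling genes, many of them shared with B and dendritic cells, moved both ways. Of 18 genes 5 were called higher and 4 lower, beside the background of 11.3% and 10.9%, with a median of -0.50. Csf2rb, the beta chain gene shared by the interleukin-3, interleukin-5 and GM-CSF receptors, and Csf2rb2, that of the interleukin-3 receptor alone, rose from 67.3 and 50.1 to 236 and 299 CPM and from 49.0 and 15.3 to 372 and 487 CPM (adjusted p = 0.00647 and 0.0147). The fold change of Csf2rb2 was 4.85 without control 55 and 3.13 without control 69. These genes share 12.3% and 18.4% of their 50-base stretches with each other. Fcer1g, the gamma chain gene of the IgE receptor and of other Fc receptors, rose from 40.0 and 22.7 to 229 and 221 CPM (0.00656), while Fcer1a and Ms4a2, the other chains, were at or near 0 in the same libraries. Fyn and Lat2 also rose (Lat2 by 1.67, or by 2.41 without control 55), and Syk, Btk, Csf2ra and Fcer1a fell. Syk, Btk, Csf2ra and Lat2 did not pass without knockout 51 or without knockout 63, at adjusted p-values of 0.0538 to 0.181.

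Of 11 tested genes of granule packaging, 2 were called higher and 1 lower, close to the background of 11.3% and 10.9%, with a median of 0.18. The gene that fell was Rab44, which encodes a large Rab protein of granulocytes and mast cells, at 34.0, 32.4, 3.89 and 6.74 CPM (-2.65 ± 0.32, adjusted p = 0.00855). Unc13d and Rab27a, both needed for granule release in many blood cells, rose by 0.81 ± 0.13 and 1.11 ± 0.18. Without knockout 51 Unc13d had an adjusted p of 0.0757 and Rab27a of 0.0642, and without knockout 63 Unc13d was at 0.0654. Srgn, whose product serglycin binds granule proteases, was at 407, 411, 344 and 282 CPM (adjusted p = 0.151).

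Genes outside these lists whose pattern over the 4 libraries was nearest to the median of the 9 genes that passed the filter were sought by Euclidean distance of centred log2 CPM (with 0.1 CPM added). Among the 8 nearest were Rgs13, Shank2, Dok3, Gpr12, Trib2, Steap4 and Rsph1. The 8 lay at distances from 0.223 to 0.794, against 0.586 for Prg3, 0.677 for Mcpt8, 1.25 for Ms4a2, 1.46 for Ear6, 1.82 for Prg2, 2.01 for Ear1, 2.18 for Prss34, 3.09 for Epx and 4.33 for Cpa3, so that 7 of these 9 lay farther from their own median than the 8 did. Rgs13, a regulator of G protein signalling, had 136, 70, 0 and 0 counts. Dok3, an adaptor gene of B cells and myeloid cells, was far more abundant, at 545, 413, 15.6 and 18.5 CPM. Trib2, a pseudokinase gene, was at 160, 64.2, 2.23 and 3.38 CPM. These genes were picked on the same contrast, so their fall has no test here.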

How the data were processed

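Libraries were made from total RNA with a low-input kit, per the labels' protocols. The submitters' processing notes list the aligner STAR (2.7.4a), featureCounts, Subread (2.0.0), DESeq2, deepTools (3.3.2) and SAMtools (1.10) with GRCm38 and mm10 as genome builds. The gene annotation, the strand setting and the treatment of multi-mapping reads were not given in the sources used here. The authors deposited raw counts per gene symbol, which were used throughout. The authors also deposited a normalized signal, each count times 1 factor per library (0.816 to 1.22), used in 1 alternative.

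Counts were filtered with filterByExpr (minimum count 10, total 15), scaled by TMM and compared between genotypes with edgeR 4.0.16 (glmQLFit, glmQLFTest, R 4.3.3) over all 4 libraries, with Benjamini-Hochberg adjustment over 13507 genes and a threshold of 0.05. The SE of a log2 fold change was its size divided by the root of its F statistic. The procedure was also run on counts simulated with 1 common dispersion (0.063) for all genes. Those counts do not cover spread that differs by gene, or genes near 0 in 1 genotype only. Ratios use pooled counts over scaled library sizes, with exact conditional 95% intervals. Lists are described by counts and medians, without a set test. Replicates differed beyond sampling noise (chi-square per gene of 84.5 for controls and 61.0 for knockouts). DESeq2 1.42.0 and limma 3.58.1 served as alternatives.

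The 10 genes and all lists were chosen with earlier results of these data known. Named besides the 10 were Tnpo3, the called genes of each list that ranked first by adjusted p (at most 4), and the 8 nearest patterns. Items withheld for evaluation are not reported here. Kit, Ccr3, Siglecf, Il5ra, Gata1, Zfpm1, Gfi1, Spi1, Mitf, Cebpa, Srgn, the remaining called receptor and signalling genes and the marker lists were named as defining or called genes after their values were seen. Ear5 and Vamp7 of the lists had no row of that symbol.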

Additional observations from a re-analysis of the deposited data

How the results depend on the processing

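No paired analysis was possible because the genotypes share no replicate numbers. Leaving 1 library of a genotype leaves 1 residual degree of freedom and takes the remaining library to vary as the rest do. Of all tested genes, 1468 were called lower and 1524 higher. With a left-out library the counts ran from 530 to 1580 and from 747 to 1649, and at a false discovery rate of 0.1 the lower ones were 2232. The 2 other lineage genes called higher, Cma1 and Rnase2b, became 0 with the stricter filter (at least 1 CPM in 2 libraries, mean count of 50 or more). The number was also 0 with limma on the authors' values. Neither gene was tested in those 2 settings, so these values of 0 do not bear on the calls. Both calls changed when single libraries were left out, as given above. The 4 receptor and signalling genes called lower became 1 to 7 and the 2 granule packaging genes called higher 0 to 3 with a library left out. The log2 fold change of Kit, 0.24, reversed without control 55 (-0.30) and without knockout 51 (-0.37) and was at most 1.19, without control 69. That of Il3ra, 0.25, reversed without control 55 (-0.044) and was at most 0.66, without control 69. The cause was not tested. Depth limits the knockout levels of Epx, Ear2, Ear6, Prss34, Mcpt8 and Ms4a2, each of which rests on 8 reads or fewer.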

Other observations

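Some genes of the same cell types were not called. Cyp11a1, a steroid enzyme gene that basophils and mast cells can express, was at 0.764, 1.05, 3.20 and 2.09 CPM in control 55, control 69, knockout 51 and knockout 63, and did not pass edgeR's test (adjusted p = 0.0715). Il3ra, the alpha chain gene of the interleukin-3 receptor, was at 16.2, 27.0, 24.5 and 26.7 CPM in the same order, with overlapping groups. Slc18a2, the gene of the vesicular monoamine transporter that loads histamine into granules, was at 5.41, 5.37, 4.53 and 4.25 CPM, and Hpgds, a prostaglandin D synthase gene, at 4.402, 2.86, 1.68 and 2.26 CPM. Neither passed, with adjusted p-values of 0.510 and 0.188.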
